A study of Mus musculus with 2 samples.

Results

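Single-cell RNA was measured in KPPC mouse pancreatic tumours, and the genes described here are the 10 that encode granule proteins of the neutrophil, grouped by the stage of maturation at which the granule is made. They are Elane, Mpo, Prtn3 and Ctsg (primary granules), Camp, Ngp and Ltf (secondary granules), Mmp8 (late granules), Lcn2 (secondary and later granules) and Cybb (the membrane of granules and vesicles). They were found by symbol, and all 10 are among the 32285 genes that both libraries list. One library of tumour cells came from mice given vehicle and 1 from mice given takinib, an inhibitor of the kinase TAK1, at 50 mg/kg. Mice of both groups were 6 weeks old and were treated for 14 days. KPPC names a mouse model of pancreatic cancer, and both groups carry this genotype. The labels give neither the alleles, nor the Cre driver, nor the number of mice or their sex behind each library. With 1 library per treatment there was no replicate spread and no test, so every interval below is a 95% interval for counting error only.

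Neutrophils develop in the bone marrow from granulocyte-monocyte precursors, and they make their granules in a set order. Promyelocytes make primary granules with the serine proteases neutrophil elastase, proteinase 3 and cathepsin G and with myeloperoxidase. Myelocytes then make secondary granules with lactoferrin and cathelicidin, and later cells make gelatinase granules, after which the mature cell leaves the marrow with its proteins stored and most of these transcripts gone. Transcripts of primary granule genes are therefore usually found in marrow and not in tissue neutrophils.

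Where the genes lie bears on how they could be counted. In the GENCODE M21 annotation of GRCm38, Prtn3 (proteinase 3) spans chr10:79874476-79883174 and Elane (neutrophil elastase) chr10:79886247-79888215, both on the + strand with 3072 bases between them. The Prtn3 model overlaps its neighbour Plppr3, on the opposite strand, by 159 bases. The RefSeq start of Prtn3 lies within the longer GENCODE model and downstream of that overlap. Mpo (myeloperoxidase, chr11:87793581-87804413, + strand) lies over an antisense gene, Gm11505, and Ctsg (cathepsin G) spans chr14:56099881-56102574 on the - strand. The 3 secondary granule genes lie within 1195389 bases of chromosome 9: Camp (cathelicidin) at chr9:109847379-109849617, Ngp (neutrophilic granule protein) at chr9:110419747-110423012 and Ltf (lactoferrin) at chr9:111019271-111042767. Mmp8 (neutrophil collagenase) lies on the same chromosome at chr9:7558456-7568485. Lcn2 (lipocalin 2, which binds bacterial siderophores) spans chr2:32384633-32388252, and Cybb (the catalytic subunit of the phagocyte NADPH oxidase) spans chrX:9435252-9487771.

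Promoters of 2 primary and 2 secondary granule genes are shown, because these groups parted along the maturation sort described further on. Each holds 300 bases, from 250 before to 50 after the start of the gene, from RefSeq on GRCm38.p6, written 5′ to 3′ on the gene's strand. All 10 members matched an entry. Capitals mark matches, on either strand, to the core motif of PU.1 (GAGGAA) or of C/EBP (TTGCNNAA, where N is any base), 2 families of factors that act in granulocytes.
Elane (chr10:79886062-79886361, + strand): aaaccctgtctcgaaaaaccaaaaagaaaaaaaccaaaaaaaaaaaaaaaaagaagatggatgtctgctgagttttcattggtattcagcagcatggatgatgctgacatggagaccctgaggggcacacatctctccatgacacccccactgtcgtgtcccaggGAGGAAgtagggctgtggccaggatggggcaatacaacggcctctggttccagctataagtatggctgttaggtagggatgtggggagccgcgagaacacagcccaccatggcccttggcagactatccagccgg
Prtn3 (chr10:79879417-79879716, + strand): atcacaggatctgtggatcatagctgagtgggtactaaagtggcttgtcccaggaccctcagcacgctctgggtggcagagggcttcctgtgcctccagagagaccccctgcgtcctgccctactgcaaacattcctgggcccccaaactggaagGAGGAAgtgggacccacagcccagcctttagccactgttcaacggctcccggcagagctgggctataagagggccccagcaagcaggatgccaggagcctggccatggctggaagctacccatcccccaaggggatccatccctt
Ngp (chr9:110419558-110419857, + strand): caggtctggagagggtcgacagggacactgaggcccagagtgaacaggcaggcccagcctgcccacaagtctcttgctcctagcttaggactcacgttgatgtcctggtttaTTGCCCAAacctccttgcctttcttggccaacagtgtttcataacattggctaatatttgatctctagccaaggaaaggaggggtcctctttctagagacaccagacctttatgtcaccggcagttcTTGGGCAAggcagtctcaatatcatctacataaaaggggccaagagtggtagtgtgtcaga
Ltf (chr9:111019042-111019341, + strand): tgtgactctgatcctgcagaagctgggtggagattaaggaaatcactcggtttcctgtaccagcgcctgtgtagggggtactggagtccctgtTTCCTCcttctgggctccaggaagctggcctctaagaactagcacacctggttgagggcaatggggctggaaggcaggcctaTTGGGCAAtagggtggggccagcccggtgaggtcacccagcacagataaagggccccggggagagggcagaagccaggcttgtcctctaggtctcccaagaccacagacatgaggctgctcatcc

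The PU.1 core was found in 4 of 4 primary granule promoters and in 4 of the 6 others, against 28.3% of all 32851 promoters of this length. The C/EBP core was found in 0 of 4 primary granule promoters and in 4 of the 6 others, against 10.8% of all promoters. The others without it were Cybb and Camp. Camp, a secondary granule gene whose promoter is not shown, had 0 matches to either core, so the secondary genes did not share the C/EBP core. In Elane the PU.1 match began 85 bases before the start, and in Prtn3 it began 95 bases before it. Ngp held 2 C/EBP matches, 138 and 11 bases before the start, and Ltf held 1 at 75 bases with a PU.1 match at 157. The 2 motifs did not overlap each other in the sequences shown. A match describes these letters, not a bound site.

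A cell needed 1000 UMIs and 500 genes, with no more than 20% of its UMIs mitochondrial, and doublets were removed. This left 9558 cells with 42000538 UMIs in vehicle and 25183 cells with 119726977 UMIs in takinib. The libraries differed in more than treatment. Median depth was 3556 and 2887 UMIs, and the median mitochondrial share was 8.70% and 1.79%. Barcodes of takinib were listed after a filter and those of vehicle without one, the file headers name different Cell Ranger versions, and 359 kept barcodes occurred in both libraries. Cells were clustered without the members and other granule genes, and clusters were named from marker genes. Neutrophil-like cells made up 2.82% of vehicle (270 cells) and 47.8% of takinib cells (12034 cells). At resolution 2 the vehicle number was 35 cells, since most of the others joined an unnamed cluster with mast or basophil markers close behind. In vehicle 1075 cells had Xist and no Y-linked UMI and 3087 had the reverse, against 14324 and 0 in takinib. S100a8 and S100a9, the most abundant neutrophil transcripts, were also present in takinib cells of every other class, with a summed level in T or NK-like cells of 22561 CPM (counts per 1000000 UMIs) against 486 CPM in vehicle. The part of these differences in the results below was not tested, and they cannot be told apart from treatment.

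Summed over all kept cells, the primary granule genes were close to absent in vehicle, except Prtn3, and present in takinib. Elane had 13 counts in 12 vehicle cells and 12293 counts in 527 takinib cells, or 0.310 and 103 CPM, a ratio of 332 (194 to 623). Mpo, which makes hypochlorous acid, had 3 and 6885 counts, in 3 and 348 cells, a ratio of 805 with an interval from 275 to 3905. Ctsg had 0 counts in vehicle, which allows up to 0.0714 CPM, and 4541 counts in 272 takinib cells (37.9 CPM), so its level was at least 531-fold higher. These 3 genes thus were thus near absent in vehicle and found in at least 272 takinib cells each. Prtn3 differed from them, with 2734 counts in 1279 vehicle cells and 17424 counts in 2298 takinib cells, or 65.1 and 146 CPM, a ratio of 2.24 (2.15 to 2.33).

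The secondary granule genes had counts in both libraries and were more abundant in takinib. Camp, the precursor of an antimicrobial peptide, stood at 33.0 CPM in vehicle and 642 CPM in takinib, a ratio of 19.5 (18.5 to 20.5). Ngp stood at 31.9 and 967 CPM, a ratio of 30.3 (28.7 to 32.0). Ltf, which binds iron, stood at 18.2 and 271 CPM, a ratio of 14.9 (13.9 to 16.01). Of the later genes, Mmp8 stood at 6.45 and 134 CPM, a ratio of 20.8 (18.4 to 23.5). Among the members with at least 271 vehicle counts Lcn2 showed the highest ratio, at 94.0 and 5055 CPM, 53.8-fold (52.1 to 55.5). Cybb showed the lowest ratio of all 10, at 381 and 604 CPM, 1.59-fold (1.56 to 1.61). A sum over all cells mixes the number of cells that hold a transcript with the level in each, and the following sections separate them.

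On a log2 scale with 10 CPM added to each level, 9 of the 10 members were higher in takinib by more than 1, and 0 were lower by more than 1. Of the 15600 genes with at least 50 counts in a library, 2.62% were higher and 3.42% lower by that margin. The median log2 ratio was 3.22 over the members and -0.13 over all these genes. Elane, Mpo and Ctsg reached the minimum of 50 counts in takinib alone, so their part in this count was favoured by the minimum. The 10 CPM make low genes appear to differ less, and the values on this scale were 3.45 for Elane, 2.74 for Mpo, 2.26 for Ctsg and 1.05 for Prtn3. Camp stood at 3.92, Ngp at 4.54, Ltf at 3.32, Mmp8 at 3.13, Lcn2 at 5.61 and Cybb at 0.65. With each cell thinned to 1000 UMIs the summed primary granule genes gave 1.04 in place of 2.23.

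**Figure D1:**
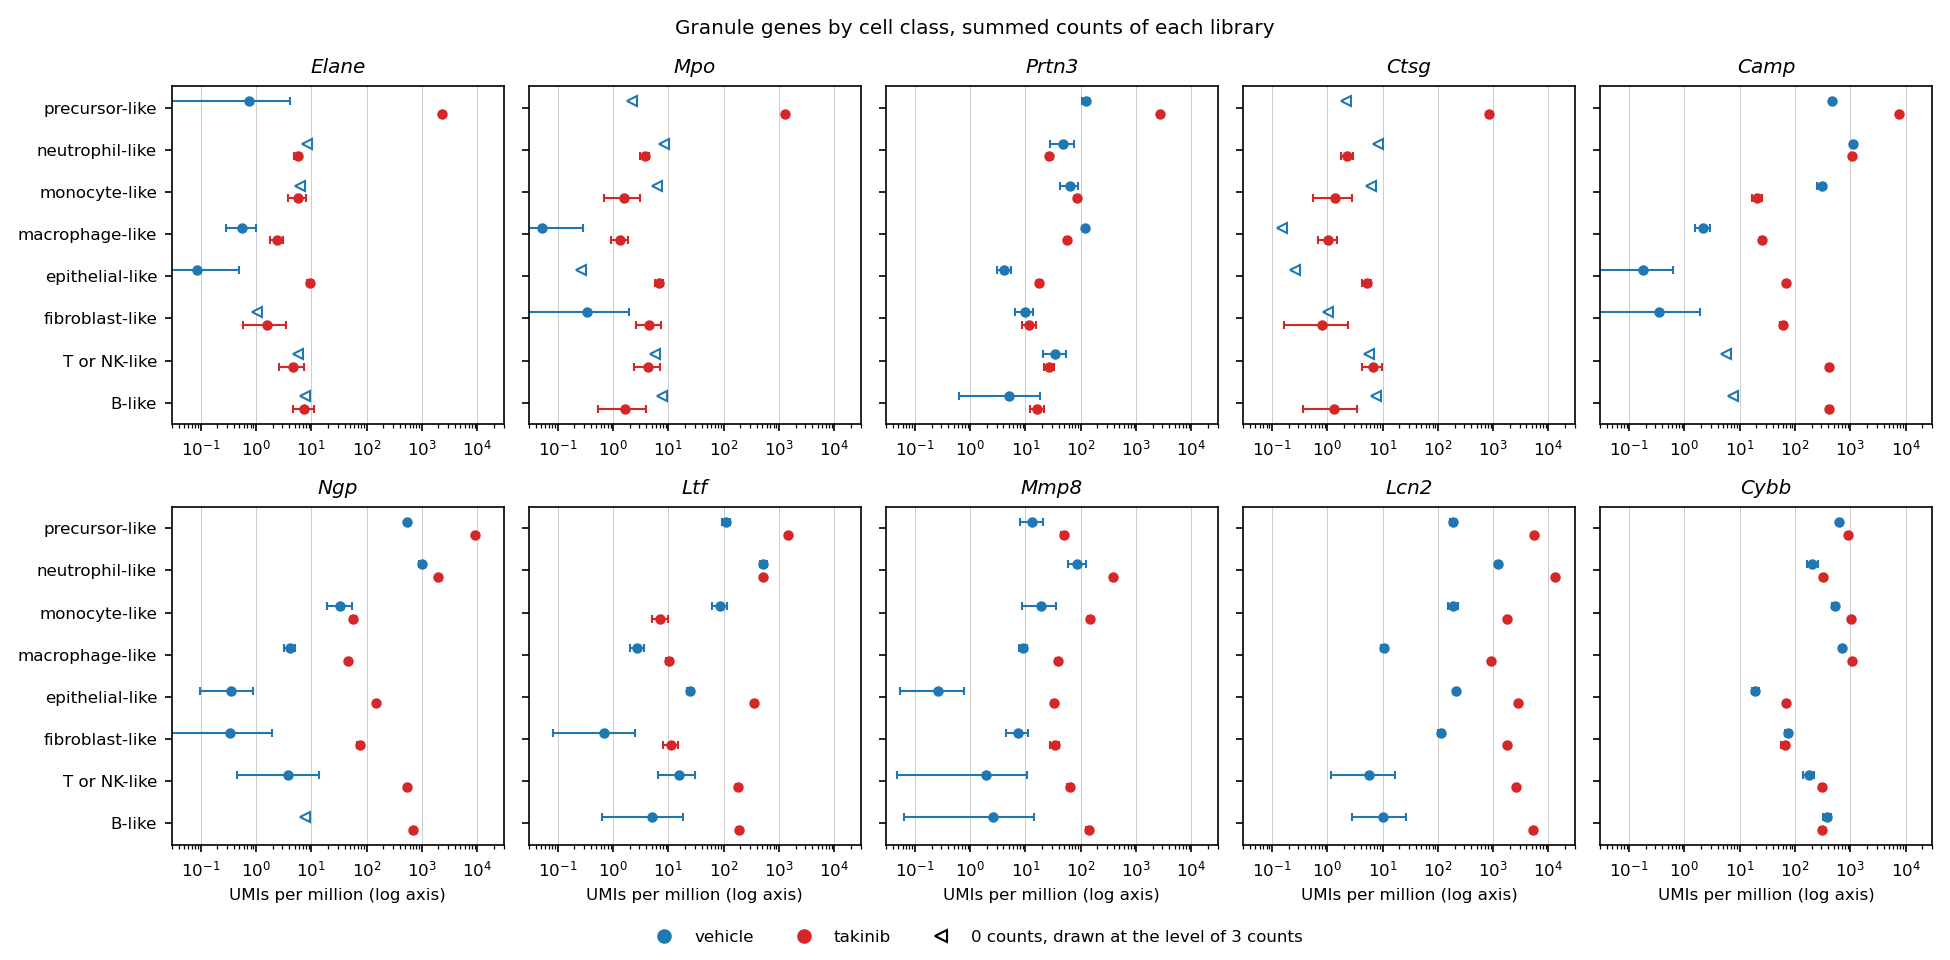
Level of each of the 10 granule genes (CPM, log axis) in 8 cell classes of the vehicle (blue) and takinib (red) libraries, with 95% Poisson intervals, which continue beyond the left edge where they reach it. Open triangles are 0 counts, drawn at the level of 3 counts; Elane, Mpo and Ctsg stand apart in takinib precursor-like cells (2318, 1290 and 843 CPM), while Cybb is at 64.8 CPM or above in all 8 takinib classes and at 75.5 CPM or above in 7 of 8 vehicle classes.

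Transcripts of Elane, Mpo and Ctsg were held by few cells. In takinib 148 of 25183 cells (0.588%, 0.497 to 0.690) had at least 5 UMIs of these 3 genes together, and those cells held 22932 of the library's 23719 such UMIs. The precursor-like cluster contained 139 of them and neutrophil-like clusters 1. Of the other 8, 6 were epithelial-like, 1 was T or NK-like and 1 erythroid-like. In vehicle 0 of 9558 cells reached 5 UMIs, which allows a share of up to 0.0314%, and the 16 UMIs in the library lay in 15 cells. At least 1 such UMI was found in 861 takinib cells, of which 361 were neither precursor-like nor neutrophil-like.

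The precursor-like cluster was named from Myb, Kit, Cd34, Gfi1, Cebpe, Ms4a3 and Prss57, none of them a member, and it held 200 vehicle and 440 takinib cells. Its makeup differed between the libraries. The 7 naming genes together stood at 33.1 CPM in vehicle, with 1 of 7 at 0, and 777 CPM in takinib. Macrophage markers (10 genes, 0 of them at 0 in either library) together stood at 9491 and 3283 CPM, and 145 of the 200 vehicle cells against 135 of the 440 takinib cells had at least 5 UMIs of C1qa, C1qb and C1qc. Neutrophil markers (10 genes, 0 at 0) stood at 3879 and 88552 CPM. The name therefore rests on the takinib cells, and the vehicle cells of the cluster went against it.

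Within that cluster 9 of 10 members were higher in takinib by more than 1 on the log2 scale, and 0 were lower, against 3.65% higher and 3.06% lower among the 7691 genes tested there. Of the 9, Elane, Mpo, Ctsg and Mmp8 reached 50 counts in takinib alone, so their part in the count was favoured by that minimum. Elane stood at 0.74 CPM in vehicle and 2318 CPM in takinib, and Prtn3 at 122 and 2676 CPM. Mpo and Ctsg had 0 vehicle counts and stood at 1290 and 843 CPM in takinib. Ngp stood at 547 and 9335 CPM, Camp at 473 and 7639 CPM, and Ltf at 111 and 1437 CPM. Cybb was the exception, at 637 and 914 CPM. Because the kinds of cell in the cluster differed, these are differences between what the cluster held in each library. In vehicle 3 of the 200 cells had at least 50 UMIs of Camp, Ngp and Ltf together, and 166 of the 440 takinib cells did.

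Takinib cells of the neutrophil-like and precursor-like clusters (12474 cells) were thinned to 1000 UMIs each, so that depth was equal. A cell with a Ctsg UMI usually held other primary granule transcripts: of 114 such cells, 59.6% had Mpo, 59.6% had Elane and 63.2% had Prtn3. The same cells rarely held Ltf (0.877%), and 24.6% held Camp. Of 202 cells with an Elane UMI, 42.1% had Mpo and 56.9% had Prtn3, and among the secondary genes 41.1% had Ngp, 38.1% had Camp and 14.4% had Ltf. The same genes were found in 0.587% (Mpo), 2.79% (Prtn3), 16.3% (Ngp), 8.67% (Camp) and 7.33% (Ltf) of the cells without Elane. Prtn3 had UMIs in more cells than the others, and 25.2% of its 457 cells had Elane. Counted over the 4 genes, 62 cells had all 4 at this depth, 29 had 3, 41 had 2 and 513 had 1.

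Secondary granule transcripts were found together, and Camp also with Elane. Of 1141 cells with a Camp UMI, 54.6% had Ngp, 41.2% had Ltf and 6.75% had Elane, against 12.9%, 4.05% and 1.10% of the cells without Camp. Of 929 cells with an Ltf UMI, 60.1% had Ngp and 50.6% had Camp, against 13.2% and 5.8% of the cells without Ltf. Ngp, the most widely found of the 3, had Camp in 29.9% and Ltf in 26.8% of its 2085 cells. Most cells with an Mmp8 UMI had none of a given secondary gene at this depth, but they had one more often than cells without Mmp8. Of its 2598 cells 23.3% had Ngp, 11.8% had Camp and 10.6% had Ltf, against 14.98%, 8.5% and 6.6% of the cells without Mmp8. Lcn2 was found in 11610 of the 12474 cells.

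Taking the 4 primary genes against the 3 secondary genes, 206 of 645 cells with a primary granule UMI (31.9%, 28.4 to 35.7) also had a secondary one, and 23.3% of the 11829 cells with no primary UMI did. In takinib classes that should lack these transcripts, 11.5% of 1275 T or NK-like and 16.3% of 1261 B-like cells had a secondary UMI at the same thinned depth. Of 1877 epithelial-like cells, a class in which Ltf was also found (described further on), 21.2% did. Among precursor-like cells, where most of the primary transcripts lay, 103 of 170 (60.6%, 52.8 to 68.0) had both, against 30.7% of the 270 with no primary UMI. Of the 440 takinib cells in that cluster 135 had at least 5 UMIs of C1qa, C1qb and C1qc. The part of such cells in this contrast was not tested. Without thinning the share over both classes was 45.4%, and in cells with at least 2000 UMIs and 1000 genes it was 50.2%. Median depth before thinning was 1821 UMIs in neutrophil-like and 11417 in precursor-like cells, and 1897 in T or NK-like cells.

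**Figure D2:**
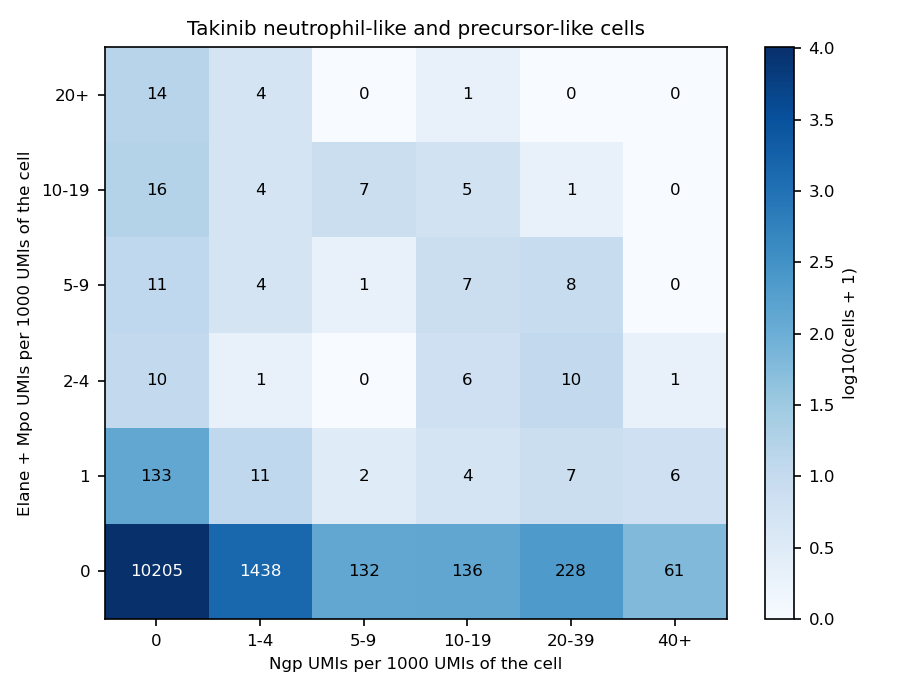
Number of takinib neutrophil-like and precursor-like cells by Elane plus Mpo UMIs (vertical) and Ngp UMIs (horizontal) per cell thinned to 1000 UMIs; colour is log10 of cells plus 1. The 16 cells with 10 to 19 Elane plus Mpo UMIs and no Ngp, and the 228 cells with 20 to 39 Ngp UMIs and no Elane or Mpo, lie on the axes, and a band of cells with both runs between them.

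The plot of cells by Elane plus Mpo against Ngp showed cells at both ends and a band between them. Among cells with 20 or more Elane plus Mpo UMIs of 1000, 14 had no Ngp, 4 had 1 to 4 Ngp UMIs and 1 had 10 to 19. At 5 to 9 Elane plus Mpo UMIs the cells spread over the Ngp range, with 11 at no Ngp, 7 at 10 to 19 and 8 at 20 to 39. No cell with 40 or more Ngp UMIs had more than 4 of Elane plus Mpo, while 61 of those cells had none.

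For a sort into stages, a cell counted as primary-positive with at least 2 Elane plus Mpo UMIs of 1000 and as Ngp-positive with at least 5 Ngp UMIs of 1000. These limits sit on a range and do not part 2 types: 163 cells had exactly 1 Elane plus Mpo UMI and 15 had exactly 2, and 65 cells had 4 Ngp UMIs and 39 had 5. Of 1275 T or NK-like cells 14 reached the Ngp limit and 0 the Elane plus Mpo limit, and of 1261 B-like cells 12 and 0 did. The sort gave 64 cells with primary transcripts only, 47 with both, 576 with Ngp only and 11571 neutrophil-like cells with neither, with median depths of 15027, 12568, 5299.5 and 1782 UMIs. The 216 precursor-like cells with neither were set aside. Of the primary-only cells 61 were precursor-like, and of the Ngp-only cells 459 were neutrophil-like.

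Along this sort, Ctsg and Prtn3, which played no part in it, were highest in the primary-only cells with Elane and Mpo. Ctsg stood at 3968 CPM in primary-only cells, 729 CPM in cells with both, 4.46 CPM in Ngp-only cells and 2.42 CPM in neutrophil-like cells with neither. Its level in the cells with both was 18.4% of its peak. Prtn3 stood at 9550, 5815, 242 and 23.4 CPM, so the cells with both still had 60.9% of its peak. Of the sorting genes, Mpo stood at 5814 and 1821 CPM in the first and second group (31.3% of the peak in the second), and Elane at 8472 and 6026 CPM (71.1%). Of the 2 genes not used in the sort, Ctsg was nearer to the primary-only end than Prtn3, while the positions of Mpo and Elane are partly set by the sort.

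Of the secondary granule genes not used in the sort, Camp came before Ltf. Camp stood at 889 CPM in primary-only cells, 19162 CPM in cells with both, 15819 CPM in Ngp-only cells and 58.9 CPM in cells with neither. Ltf stood at 5.45, 672, 5794 and 49.2 CPM, and its level in the cells with both was 11.6% of its peak. Cybb, whose protein sits in the membrane of these granules, followed Camp more closely than Mmp8, at 301, 1358, 1396 and 227 CPM. Ngp, used for the sort, stood at 581, 18345, 24140 and 238 CPM.

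Mmp8 and Lcn2 kept high levels in the cells with neither. Mmp8 stood at 16.3 CPM in primary-only cells, 16.9 CPM in cells with both, 628 CPM in Ngp-only cells and 333 CPM in cells with neither, which is 53.1% of its peak. Lcn2 stood at 1433, 8187, 16537 and 12659 CPM, and so at 49.5% of its peak in the cells with both and 76.5% in those with neither. Mmp9, a marker of gelatinase granules and no member, stood at 15.3, 6.75, 909 and 574 CPM, close to the pattern of Mmp8. Elane, Mpo and Ngp defined the groups, so their places are no result. Ordered by the mean position of their levels from group 1 to 4, the genes ran Ctsg (1.16), Mpo (1.24), Prtn3 (1.41), Elane (1.42), Camp (2.42), Cybb (2.47), Ngp (2.56), Ltf (2.90), Lcn2 (3.04), Mmp8 (3.29) and Mmp9 (3.36). Neighbours such as Prtn3 and Elane, or Camp and Cybb, lay close together, and with 1 library the spacing has no replicate error.

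**Figure D3:**
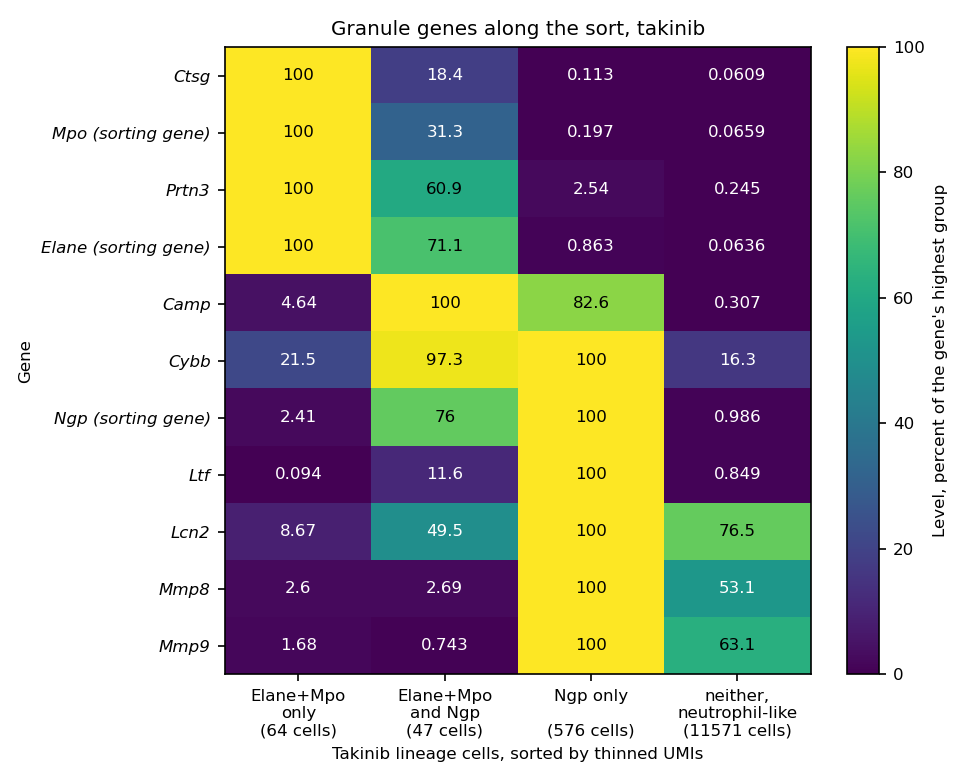
Level of the 10 granule genes and Mmp9 in 4 groups of takinib cells sorted by Elane plus Mpo and by Ngp, as a percentage of each gene's highest group. Ctsg, Mpo, Prtn3 and Elane peak in the 64 primary-only cells, Camp in the 47 cells with both, and Cybb, Ngp, Ltf, Lcn2, Mmp8 and Mmp9 in the 576 Ngp-only cells; Lcn2 is at 76.5% and Mmp8 at 53.1% of the peak in the 11571 cells with neither.

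Genes outside the member list gave the sort further landmarks. Ms4a3, a marker of granulocyte-monocyte precursors, stood at 1501, 867, 74.8 and 1.97 CPM over the 4 groups. The transcription factor Gfi1 stood at 61.0, 25.3, 8.93 and 0.335 CPM, while Cebpe, which the secondary granule genes need, peaked in the cells with both (125, 424, 176 and 9.3 CPM). Fcnb and Serpinb1a, an inhibitor of neutrophil serine proteases, peaked there too, Serpinb1a at 666, 1667, 681 and 16.96 CPM. Summed division genes (8 genes, among them Mki67 and Top2a) stood at 4382, 6419, 3270 and 529 CPM. The late neutrophil list (Cxcr2, Csf3r, Il1b and 5 others) ran the other way, at 776, 751, 3166 and 12494 CPM.

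Of the 470 vehicle cells in the neutrophil-like and precursor-like clusters, 0 were sorted into the first and second group. Takinib had 64 and 47 cells there beside 576 Ngp-only cells. Vehicle had 10 Ngp-only cells, too few to tell whether the first and second group were missing from it. The 10 cells had Camp at 27754, Ngp at 29707, Ltf at 8139, Mmp8 at 814, Lcn2 at 14650 and Cybb at 2198 CPM. They had 0 counts of Elane, Mpo and Ctsg. By the full counts, 12 vehicle cells had at least 50 UMIs of Camp, Ngp and Ltf together (86 to 861 UMIs) and held 86.2% of the library's UMIs of these genes. Of the 12, 6 lay in the neutrophil-like cluster led by Ifitm6, 3 were precursor-like, and 1 each was endothelial-like, macrophage-like and monocyte-like. In takinib 595 cells passed 50 UMIs (166 precursor-like, 336 neutrophil-like and 93 elsewhere) and held 91.0%. Takinib Ngp-only cells, for comparison, had Camp at 15819 and Ltf at 5794 CPM, so neither gene was lower in the 10 vehicle cells.

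In neutrophil-like cells as a class the libraries differed much less in the secondary granule genes than over all cells. Camp stood at 1117 CPM in vehicle and 1085 CPM in takinib, Ltf at 519.6 CPM in both, and Ngp at 986 and 1949 CPM. Of the 10 members 2 were higher by more than 1 on the log2 scale, Lcn2 and Mmp8, and 0 were lower. Of the 10050 genes tested in this class 4.17% were higher and 15.1% lower by that margin, and the median log2 ratio was -0.37 over all genes and 0.53 over the members. Lcn2 stood at 1225 and 12974 CPM, log2 ratio 3.39 (3.26 to 3.53). Mmp8, which reached 50 counts in takinib alone as Elane, Mpo, Prtn3 and Ctsg did, stood at 86.1 CPM (31 counts) and 379 CPM, log2 ratio 2.02 (1.56 to 2.47).

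The remaining members differed by less than 1 on the log2 scale in these cells. Cybb stood at 206 and 316 CPM (log2 ratio 0.60), and Prtn3 at 47.2 and 26.5 CPM (-0.65). Elane, Mpo and Ctsg had 0 counts in the 270 vehicle cells and stood at 5.70, 3.72 and 2.29 CPM in takinib. Those takinib levels lie close to the ones in T or NK-like cells of the same library, 4.59, 4.31 and 6.60 CPM. By cells, Lcn2 was found at 1000 UMIs per cell in 15.2% of the neutrophil-like cells of vehicle and 94.3% of those of takinib (17.4% and 96.0% unthinned), and in T or NK-like cells in 0.40% and 37.6% (1.19% and 49.6% unthinned). Mmp8 was found in 2.59% and 21.4% of thinned neutrophil-like cells (2.59% and 33.8% unthinned). Median depth was 1216 and 1821 UMIs in neutrophil-like cells and 1418.5 and 1897 in T or NK-like cells.

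The summed secondary genes gave a log2 ratio of 0.44 in neutrophil-like cells, and its direction depended on which cells were counted. It was -0.09 (-0.29 to 0.11) in cells with at least 2000 UMIs and 1000 genes, which left 9 vehicle cells. At most 10% mitochondrial UMIs left 35 vehicle cells and gave -2.01, and a finer clustering (resolution 2) left 35 vehicle cells and gave -2.18. Restricted to the 10 vehicle cells that had Xist and lacked Y-linked UMIs, it was 3.26. The 6 rich cells of the Ifitm6 cluster held 866 of the 944 vehicle UMIs of Camp, Ngp and Ltf in this class.

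Different clusters made up the class in the 2 libraries. In vehicle 255 of the 270 cells lay in a cluster whose leading gene was Ppy, which was found in 1 of those cells and 16 of the 2106 takinib cells there, and the neutrophil receptor gene Cxcr2 was among its leading genes. In takinib the largest clusters were led by Ccl4 (4060 cells) and Lst1 (3724 cells). The vehicle cells of the Ppy cluster matched the neutrophil name less well than the takinib ones: S100a8 was found in 81.2% and 99.7% of cells, Csf3r in 50.6% and 81.0%, Retnlg in 5.49% and 74.6%, and Siglecf in 40.8% and 11.2%. The eosinophil genes Epx and Prg2 had 0 counts in the vehicle cells. Within the cluster Lcn2 stood at 464 CPM in vehicle and 5277 CPM in takinib, Mmp8 at 12.1 and 390, Ngp at 39.4 and 368, Camp at 72.8 and 167, and Ltf at 109 and 92.7 CPM. In this cluster Mmp9 stood at 1493 and 999.6 CPM. The cluster parted by library under a finer clustering (resolution 2), where 235 vehicle and 33 takinib cells formed a cluster led by Siglecf that stayed unnamed because mast or basophil markers scored close to neutrophil markers. In the Ifitm6 cluster, the other one with at least 7 vehicle cells, Lcn2 and Mmp8 were lower in takinib, at 15217 and 12541 CPM and at 1432 and 939 CPM.

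Among takinib neutrophil-like clusters the secondary granule genes were concentrated in 1. The cluster led by Ifitm6 (1134 cells) had Camp at 6811, Ngp at 11431, Ltf at 3142, Mmp8 at 939 and Cybb at 749 CPM. In the Ccl4 cluster the same genes stood at 153.9, 407.8, 102.4, 262 and 241 CPM, and in the Lst1 cluster at 130.2, 322, 65.0, 286 and 317 CPM. Lcn2 varied less and in another order, from 5277 CPM in the Ppy cluster and 11001 CPM in the Gbp2 cluster to 17725 CPM in the Lst1 cluster and 19674 CPM in the cluster led by Stfa2 (662 cells), with 12541 CPM in the Ifitm6 cluster. The 7 vehicle cells of the Ifitm6 cluster had Camp at 20042, Ngp at 18134, Ltf at 7900, Mmp8 at 1432 and Lcn2 at 15217 CPM.

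**Figure D4:**
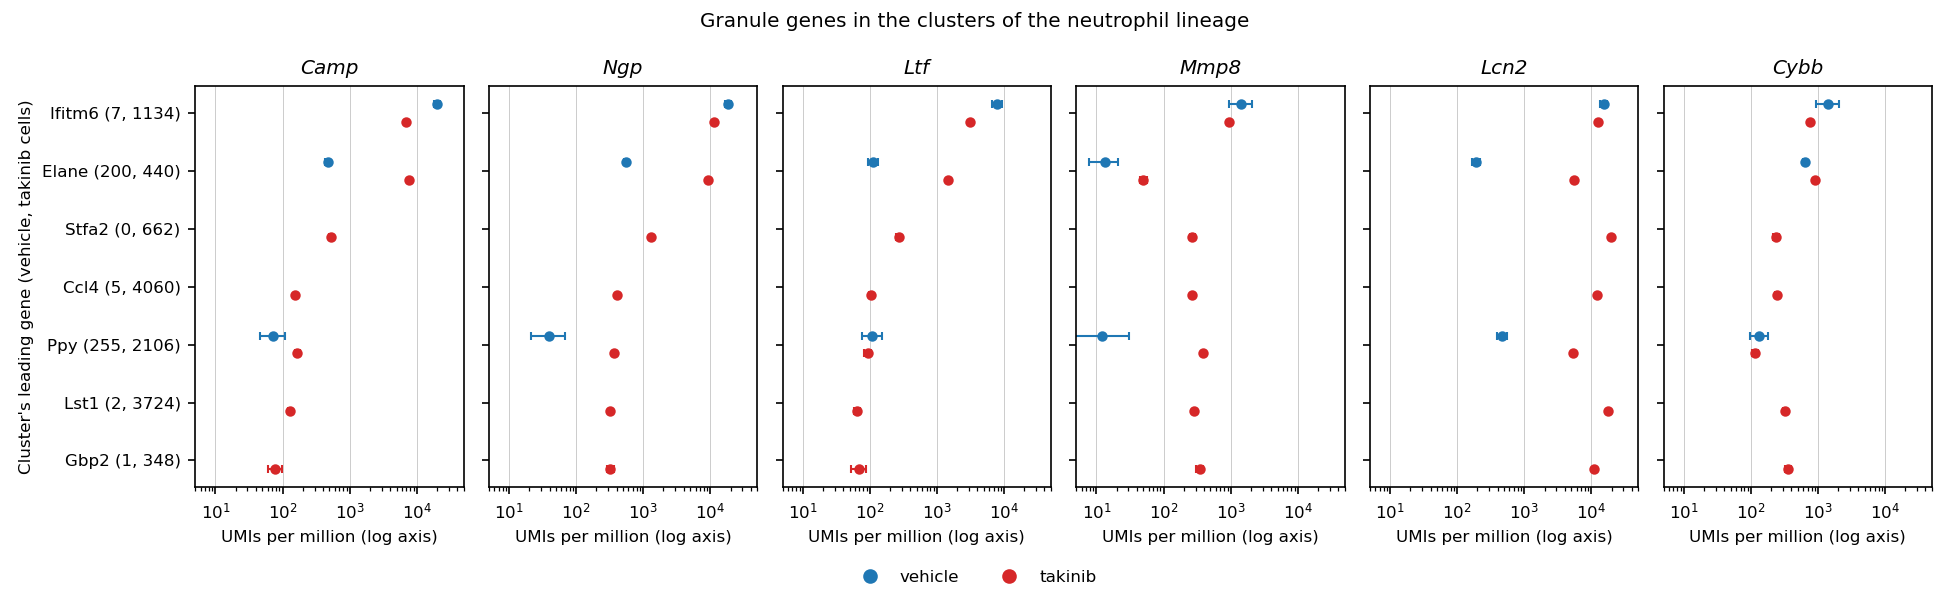
Level of 6 granule genes (CPM, log axis) in the 7 neutrophil-like and precursor-like clusters, named by leading gene with vehicle and takinib cell numbers; points are the library sums with 95% Poisson intervals, drawn where a library has at least 7 cells in the cluster. Camp, Ngp and Ltf fall off from the Ifitm6 and Elane clusters to the rest, while takinib Lcn2 lies between 5277 and 19674 CPM in all 7.

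Outside the neutrophil lineage, Prtn3 was the primary granule gene found in macrophage-like and monocyte-like cells. In vehicle macrophage-like cells it stood at 120 CPM and was found in 1059 of 4585 cells (23.1%, 21.9 to 24.3), 7 of which held any Elane, Mpo or Ctsg UMI. At 1000 UMIs per cell the share was 9.31%, against 0.79% of T or NK-like, 0.49% of B-like and 0.47% of epithelial-like vehicle cells. In other vehicle classes the thinned share was 4.95% of monocyte-like (182 cells), 4.44% of neutrophil-like (270 cells) and 5.26% of acinar-like cells (76 cells). In takinib macrophage-like cells Prtn3 stood at 55.4 CPM and was found in 560 of 3539 cells (15.8%), or 3.93% when thinned, against 1.96% of T or NK-like and 1.67% of B-like cells. Takinib monocyte-like cells were above them, with Prtn3 at 85.7 CPM and in 6.59% of thinned cells. Median depth was 3845 and 6259 UMIs in macrophage-like cells of vehicle and takinib, and 1418.5 and 1897 UMIs in T or NK-like cells.

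Prtn3 varied among macrophage-like clusters in both libraries. In vehicle it stood at 273 CPM in the cluster led by Ccl8, 183 CPM in that led by Chil3, 92.7 CPM in that led by H2-Ab1 and 5.91 CPM in that led by Gpnmb. The takinib values of these clusters were 65.2, 87.1, 61.5 and 15.9 CPM. The Gpnmb cluster was lowest in both, and the first 3 were lower in takinib. Vehicle droplets of 1 to 100 UMIs had Prtn3 at 42.9 CPM, below the level in 3 of the 4 vehicle clusters. Plppr3, which overlaps the Prtn3 model, had 183 counts in vehicle macrophage-like cells. How reads in the overlap were counted is not given in the sources used here.

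**Figure D5:**
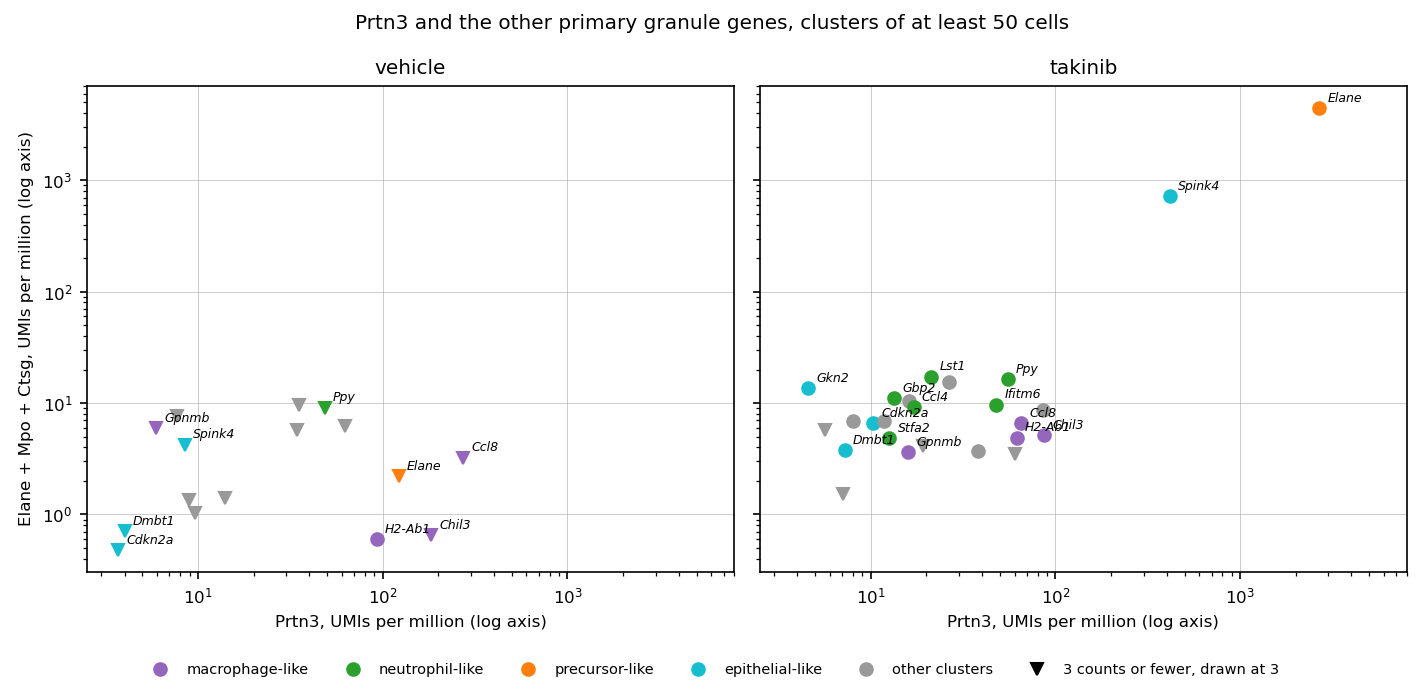
Prtn3 (horizontal) against the sum of Elane, Mpo and Ctsg (vertical), both in CPM on log axes, in clusters of at least 50 cells of vehicle (left) and takinib (right), coloured by class and labelled by leading gene for the macrophage-like, neutrophil-like, precursor-like and epithelial-like clusters; triangles have 3 or fewer counts of the 3 genes and are drawn at 3. In vehicle, the Ccl8, Chil3 and H2-Ab1 macrophage-like clusters reach 273, 183 and 92.7 CPM of Prtn3 with near absence of the other 3 genes, and in takinib the Elane precursor-like cluster stands apart on both axes.

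Lcn2 and Ltf were also found in epithelial-like cells. In this class 6 of 10 members were higher in takinib by more than 1 on the log2 scale, and 0 were lower, against 2.29% higher and 1.88% lower among the 12513 genes tested. Of the 6, Camp, Ngp and Mmp8 reached 50 counts in takinib alone, and Ltf, Lcn2 and Cybb reached it in both libraries. Lcn2 stood at 212 and 2832 CPM, a log2 ratio of 3.68 (3.62 to 3.73), and was found at 1000 UMIs in 12.0% and 60.4% of cells (22.2% and 81.9% unthinned). Against the 205 vehicle cells of the class that had Xist and lacked Y-linked UMIs the log2 ratio of Lcn2 was 2.996. Ltf stood at 24.4 and 359 CPM and was found in 2.30% and 12.8% of thinned cells (7.07% and 33.3% unthinned). In T or NK-like cells of the same libraries Ltf was found in 1.19% and 2.67% and in B-like cells in 0.98% and 3.65% of thinned cells. Lcn2 stood in these 2 classes at 2554 and 5139 CPM in takinib. Its log2 ratios there were 7.35 and 7.99, from 3 and 4 vehicle counts, above the 3.68 of epithelial-like cells. Median depth of epithelial-like cells was 5103 and 9151 UMIs.

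Both genes were highest in the epithelial-like cluster led by Dmbt1. There Lcn2 stood at 433 CPM in vehicle and 3416 CPM in takinib, and Ltf at 62.3 and 522 CPM. In the cluster led by Cdkn2a, Lcn2 stood at 93.2 and 1753 CPM and Ltf at 2.1 and 95.2 CPM. Neutrophil RNA was present in takinib cells of both clusters, so the counts were set against S100a8 plus S100a9. Takinib Dmbt1 cells had 81.5 Ltf counts per 1000 S100a8 and S100a9 counts, against 7.1 in the Cdkn2a cluster, 8.1 in T or NK-like and 3.7 in B-like cells. For Lcn2 the ratio was 533 per 1000 in the Dmbt1 cluster, against 131.4 in the Cdkn2a cluster, 113 in T or NK-like and 99.98 in B-like cells. In takinib the ratios of the Dmbt1 cluster were thus above those of classes that should lack both genes, and in the Cdkn2a cluster they were near them.

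Primary granule transcripts in epithelial-like cells came from few cells. The cluster led by Spink4 had Elane at 305 CPM, Prtn3 at 415, Mpo at 229 and Ctsg at 183 CPM in takinib (81 cells), and 6 epithelial-like takinib cells in all had 5 or more UMIs of Elane, Mpo and Ctsg. The other takinib epithelial-like clusters had Elane at 1.5 to 3.3 CPM. In vehicle the class had 0.09 CPM of Elane and 0 counts of Mpo and Ctsg.

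Lcn2 was present in takinib throughout, with a thinned share of 37.6% in T or NK-like, 56.8% in B-like and 25.8% in macrophage-like cells, against 0.40%, 0.49% and 0.94% in vehicle. In the same classes 5 of 7 members tested in T or NK-like cells, 5 of 6 in B-like cells and 4 of 8 in macrophage-like cells were higher by more than 1, against 4.9%, 10.6% and 1.65% of the genes tested in each. All 5 in T or NK-like cells, all 5 in B-like cells and Camp in macrophage-like cells reached 50 counts in takinib alone, so these counts were favoured by that minimum. In these classes 0 members were lower, against 1.43%, 2.92% and 1.1% of genes. In fibroblast-like cells 4 of 5 members were higher and 0 lower, against 4.42% and 5.81% of genes, and 3 of the 4 (Camp, Ngp and Mmp8) reached 50 counts in takinib alone. S100a8 plus S100a9 moved in the same direction in B-like (779 and 51401 CPM) and macrophage-like cells (281 and 5839 CPM). Its part in these results was not tested. A takinib cluster led by U90926, unnamed because macrophage and monocyte markers scored alike, had 387 Lcn2 counts per 1000 S100a8 and S100a9 counts, and the macrophage-like clusters had 137.2 to 183.8.

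In monocyte-like cells Camp was higher in vehicle (302 CPM) than in takinib (20.5 CPM). Of 6 members tested 1 was lower by more than 1, against 2.97% of genes, and 2 were higher, against 5.36%. Of the 2, Mmp8 (9 vehicle and 751 takinib counts) reached the minimum count in takinib alone. Its part in the count was therefore favoured by that minimum. All 144 vehicle Camp counts of this class lay in 1 cell, which also had 7 Ngp, 38 Ltf and 79 Lcn2 counts. The class therefore gives no level of Camp beyond that cell.

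Cybb, which macrophages also use to make superoxide, was higher in macrophage-like than in neutrophil-like cells of both libraries. It stood at 702 CPM in macrophage-like cells of vehicle and 1077 CPM in those of takinib, a log2 ratio of 0.61 (0.58 to 0.64), and at 206 and 316 CPM in neutrophil-like cells. At 1000 UMIs it was found in 44.2% and 54.2% of macrophage-like, 11.1% and 11.1% of T or NK-like and 28.8% and 22.7% of B-like cells. Among macrophage-like clusters the one led by Gpnmb was highest, at 1177 and 1543 CPM, and the 7 vehicle cells of the Ifitm6 neutrophil-like cluster stood at 1432 CPM. The largest macrophage-like cluster was that led by H2-Ab1 in vehicle (3219 cells, 651 CPM) and that led by Chil3 in takinib (1619 cells, 824 CPM). Against the vehicle cells that had Xist and lacked Y-linked UMIs the log2 ratio was 0.15 in place of 0.61.

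The partners of Cybb in the NADPH oxidase differed less between the libraries than the granule proteins. Over all kept cells 2 of 6 were higher by more than 1, with a median log2 ratio of 0.62, from Cyba (0.32), which pairs with Cybb in the membrane, to the cytosolic subunit Ncf4 (1.49). In neutrophil-like cells 1 of 6 was higher, with Ncf4 at 1.57 and Ncf1 at -0.99 and a median of 0.18. There Ncf4, with 33 vehicle counts, reached the minimum count in takinib alone.

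Other granule and neutrophil genes were counted by the same rule, and the lists were chosen with earlier results of these data known. Over all kept cells 2 of 5 tested other primary granule genes were higher by more than 1 and 0 lower. They ran from Ctsc, which activates the serine proteases, at -0.97 to Srgn, a proteoglycan of granules, at 2.31. Of the 2 higher genes, Ms4a3 (4 vehicle and 2431 takinib counts) reached the minimum count in takinib alone. Its part in the count was therefore favoured by that minimum. Of the other secondary granule genes 5 of 8 were higher, with Hp at 3.99 and Lyz2, which macrophages also express, at -0.95. Of the gelatinase granule and secretory vesicle genes 7 of 9 were higher, with the formyl peptide receptor Fpr1 at 3.68 and Alpl at -0.05. The granule protease inhibitors had 6 of 8 higher, a median of 3.98 and Stfa2l1, a stefin, at 5.81. Of those higher, Stfa1 and Stfa3 (17 and 2 vehicle counts) reached the minimum count in takinib alone. The late neutrophil list had 6 of 8 higher, with a median of 2.95.

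Of 10 granulocyte transcription factors 2 were higher by more than 1 over all kept cells and 0 lower, with Junb at 1.19 and Cebpa at -0.95, a median of 0.50. Of 8 division genes 1 was higher and 0 lower, with Hmgb2 at 1.00 and Stmn1 at -0.78, a median of -0.03. The share of all tested genes that were higher was 2.62%. In neutrophil-like cells 0 of 9 tested transcription factors were higher and 3 lower (Runx1 -1.73, Cebpe -1.14, Cebpd -1.13). Of 8 division genes 0 were higher and 1 lower (Tuba1b -1.38). Of the 10050 genes tested in this class 4.17% were higher and 15.1% lower, with a median of -0.37. The protease inhibitors had 6 of 8 higher with a median of 3.32 and Slpi at 4.55. Among the higher inhibitors, Stfa1, Stfa2l1 and Stfa3 (15, 43 and 0 vehicle counts) reached the minimum count in takinib alone. Their part in the count was therefore favoured by that minimum. The late neutrophil list had 1 of 8 higher, and the other primary granule genes 0 of 5. The other secondary granule genes had 4 of 8 higher and 1 lower (Chil3 2.32, Lyz2 -1.18). Of those higher, Adam8 (24 vehicle counts) reached the minimum count in takinib alone. The gelatinase and secretory vesicle genes had 4 of 7 higher and 1 lower, with Fpr1 at 4.79 and Mmp9 at -1.29. Of those higher, Fpr1, Slc11a1 and Fpr2 (5, 23 and 49 vehicle counts) reached the minimum count in takinib alone, which favoured their part. The collagenase gene Mmp8 and the gelatinase gene Mmp9 thus went in opposite directions within the class.

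Genes with the most similar pattern were sought over 41 units (clusters of at least 50 cells, by library) among 13612 genes, by Pearson's r of log2 levels, as a description with no test. Units of 1 library share its depth and free RNA. Closest to the primary sum were Gm11505 (0.79), Ms4a3 (0.79), 1700020L24Rik (0.73), Prss57 (0.72) and Card9 (0.71). Gm11505 is antisense to Mpo, and its counts are uncertain where strand was not kept. Closest to the secondary sum were S100a8 and S100a9 (0.84 each), Cstdc5 (0.81), Ifitm6 (0.80) and Stfa1 (0.80). For Lcn2 they were Cstdc4 (0.93), Stfa2l1 (0.92) and Chil1 (0.92), for Mmp8 Gm14548 (0.96), Asprv1 (0.95) and Il1f9 (0.94), and for Cybb Clec4a2 (0.89), Itgb2 (0.89), an integrin chain of leukocytes, and Mpeg1 (0.88).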

How the data were processed

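Single-cell RNA was captured from 2 tumour suspensions, 1 per treatment, grouped by the treatment label. The deposited matrices hold raw UMI counts, made by the authors with Cell Ranger 4 for vehicle and 6.1.1 for takinib, per the file headers; the submitters' processing notes name Cell Ranger 2.1.1 and the build mm10. Strand handling and chemistry are not given in the sources used here. Barcodes with at least 1000 UMIs, 500 genes and at most 20% mitochondrial UMIs were kept. Scrublet (scanpy 1.11.5) with an expected rate of 6% marked 3.18% of vehicle barcodes; in takinib it marked 0.00373%, under the 0.5% taken as working, so the highest 6% of scores were removed there (314 and 1607 barcodes).

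Cells were clustered by Leiden (igraph 0.11.9, resolution 1) on 2000 variable genes, 30 components and 15 neighbours, without 33 granule genes. A cluster took the name of 1 of 15 marker classes when at least 3 of its markers were detected and no second class scored within 0.75 of the first. Counts were summed per library and class into CPM with exact Poisson intervals; ratios over all cells have exact conditional intervals and log2 ratios normal ones, both from counts; shares have Clopper-Pearson intervals; a count of 0 allows up to 3 counts. Intervals cover counting error only. Genes with at least 50 counts in a library were compared as log2 of CPM plus 10, with a margin of 1. In simulated counts over all kept cells, 200 genes at or above 50 CPM were given 4-fold changes, and 100% were recovered in both directions. Below 50 CPM 183 such changed genes were tested, and 64% upward and 32.5% downward were recovered. In neutrophil-like cells 200 genes at or above 50 CPM were changed. Of these 100% upward and 97% downward were recovered, with 0.432% of unchanged genes called. Co-detection used cells thinned to 1000 UMIs. Named genes are the 10 members, the highest and lowest gene of 8 lists, the 5 or 3 most similar patterns, and genes named after their values were seen (cluster leaders, stage landmarks and the markers given for single clusters). Members and lists were chosen with earlier results of these data known. Alternatives changed depth, mitochondrial share, doublets, pseudocount, thinning, centring, resolution and the genes clustered. Computation used Python 3.11.15, numpy 2.4.6 and scipy 1.17.1. Annotation was GENCODE M21; promoters were RefSeq, GRCm38.p6.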

Additional observations from a re-analysis of the deposited data

Results flagged for a closer look

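Barcodes of at least 500 and under 1000 UMIs entered no comparison, and granule transcripts were present in those of takinib (5042 barcodes) above the level in those of vehicle (12893 barcodes). Lcn2 stood at 5565 CPM in takinib and 48.4 CPM in vehicle. The summed secondary granule genes Camp, Ngp and Ltf stood at 346 and 28.6 CPM. Elane, Mpo and Ctsg together stood at 31.5 CPM in takinib and had 0 counts in vehicle. The vehicle matrix lists all barcodes and the takinib matrix none under 500 UMIs, and the part of this in the difference was not tested.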

How the results depend on the processing

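All 30 library-wide log2 ratios recomputed for the 2 sums, Mmp8, Lcn2 and Cybb stayed above 0. The values in use were 2.23 for the primary sum, 4.34 for the secondary sum, 3.13 for Mmp8, 5.61 for Lcn2 and 0.65 for Cybb. In that order, at least 2000 UMIs and 1000 genes gave 2.41, 4.73, 2.89, 5.32 and 0.78. Thinning to 1000 UMIs gave 1.04, 3.76, 3.60, 6.04 and 0.38. Centring on the median gene, which subtracts its log2 ratio of -0.13, gave 2.36, 4.48, 3.27, 5.74 and 0.78. At most 10% mitochondrial UMIs gave 2.098, 4.19, 3.06 and 0.59 for all but Lcn2, keeping doublets gave 2.14, 4.42 and 0.68 for the sums and Cybb, and a pseudocount of 1 CPM gave 2.37, 4.48, 4.18 and 5.73 for all but Cybb, and the values not given moved by less than their counting interval. The secondary sum in neutrophil-like cells (0.44) was -0.092 in deep cells, -2.01 at most 10% mitochondrial, 0.28 thinned, 0.81 centred, -2.18 at resolution 2, 0.34 with granule genes clustered and 3.26 against vehicle cells with Xist and no Y-linked UMI. Lcn2 in epithelial-like cells (3.68) was 3.799 at the mitochondrial limit, 3.57 with doublets, 3.25 thinned, 3.77 centred, 3.50 at resolution 2 and 2.996 against the Xist cells. Cybb in macrophage-like cells (0.61) was 0.58 at the mitochondrial limit, 0.57 with doublets, 0.73 with granule genes clustered and 0.15 against the Xist cells. The co-detection share (31.9%) was 50.2% in deep cells, 45.4% unthinned, 37.1% without Prtn3 and 60.6% in precursor-like cells. With doublets kept it was 21.7%, but there the cluster led by Elane lost its name and left the count; with that cluster counted it was 32.3%. The cause of these shifts was not tested. The Xist, Prtn3 and precursor-like settings and the last one were chosen after seeing the data. No paired analysis was possible because each group has 1 library, and for that reason no library could be left out. Depth limits the vehicle primary genes: 0 Ctsg counts allow up to 0.0714 CPM.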

Other observations

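The droplets of 1 to 100 UMIs, listed for vehicle alone, held 652323 UMIs in 376283 barcodes. In them Cybb stood at 259 CPM, Lcn2 at 58.3 CPM, Prtn3 at 42.9 CPM, Camp at 18.4 CPM, Ltf at 16.9 CPM and Ngp at 10.7 CPM, while Mpo had 1 count and Elane and Ctsg had 0.

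In takinib Ngp-only cells of the maturation sort, the other secondary granule genes stood together at 15957 CPM, against 3497 CPM in primary-only cells, and the granule protease inhibitors at 12008 against 2452 CPM. Cd177, a surface protein of secondary granules, stood at 55.6, 675, 1338 and 136 CPM from primary-only cells to cells with neither, and Pglyrp1, an antibacterial granule protein, at 809, 3694, 4257 and 1173 CPM. Cebpb ran the other way from Cebpe, at 478, 727, 1644 and 4662 CPM.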
